A study of Mus musculus with 9 samples.

Results

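Transcripts of 10 receptors of the tumor necrosis factor (TNF) receptor superfamily were followed across 3 mouse myeloid cell lines. The receptors were chosen by gene symbol as those of blood cells, by a rule that holds no measured value but with earlier results of these data known, and all 10 were found among the 54347 genes of the table. They were *Tnfrsf13b* (TACI), *Tnfrsf13c* (the BAFF receptor), *Cd40*, *Tnfrsf9* (4-1BB), *Tnfrsf11a* (RANK), *Tnfrsf1a* and *Tnfrsf1b* (TNF receptors 1 and 2), *Ltbr* (the lymphotoxin beta receptor), *Fas* and *Tnfrsf10b* (a receptor of TRAIL). Hox-WT (labelled HoxWT) and Hox-URE (labelled HoxURE) are lines of hematopoietic progenitors that were isolated by the surface receptor c-Kit and immortalized with Hoxb8. Hox-WT has the genotype WT, and Hox-URE has the genotype UREd/d, a deletion of the URE (upstream regulatory element), which is an enhancer of the PU.1 gene, *Spi1*. URE-AML (labelled B22) is an AML blast-like line, also UREd/d, that was established by repeated culture of leukemic blasts. All 3 lines were kept in IMDM medium at 37 °C, and FCS (20%), estradiol (1 µM) and the cytokines IL-3, IL-6 and SCF (10 ng/ml each) were present throughout, as the labels give them. The methods of the study give a higher estradiol concentration than the labels. Each line came from 1 mouse and was sequenced in 3 libraries. The labels do not say whether these were separate cultures, so the p-values measure the spread between libraries of a line, which may be technical, and genotype, disease stage and line cannot be told apart.

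Receptors of this family are membrane proteins that bind trimeric ligands of the TNF family. Most recruit TRAF adaptor proteins and switch on NF-kB, whereas Fas, TNF receptor 1 and the TRAIL receptor also carry a death domain through which caspases can be activated. TACI and the BAFF receptor bind BAFF, and TACI also binds APRIL. Both receptors are known from B cells, and TACI also from plasma cells. CD40 is known from B cells, dendritic cells and macrophages, 4-1BB from activated T cells, and RANK from osteoclast precursors.

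The promoters of 8 of the 10 receptors had entries in RefSeq (GRCm38.p6), 9 in all. Windows of 250 bases that end at the annotated start were searched on both strands for GAGGAAGT and GGAAGT, sequences bound by PU.1 and other ETS factors (every match of the first also holds the second), and for TGTGGT, a sequence bound by RUNX factors. GGAAGT was found in 1 receptor, *Tnfrsf13b*, on the strand of the gene and 50 bases before the start, and 19.7% of 32851 mouse promoter windows held it. TGTGGT was found in 1 receptor, *Tnfrsf13c*, on the opposite strand and 100 bases before the start, and 14.0% of all windows held it. GAGGAAGT was in none of the 9 windows and in 2.44% of all. The windows of these 2 receptors are shown because they hold a match, and that of *Ltbr* because its transcript differed least between the lines. Capitals mark the match, which on the opposite strand reads as its reverse complement ACCACA. The windows lie at chr11:61126505-61126754 (plus strand), chr15:82224381-82224630 (minus strand) and chr6:125313886-125314135 (minus strand).
*Tnfrsf13b*: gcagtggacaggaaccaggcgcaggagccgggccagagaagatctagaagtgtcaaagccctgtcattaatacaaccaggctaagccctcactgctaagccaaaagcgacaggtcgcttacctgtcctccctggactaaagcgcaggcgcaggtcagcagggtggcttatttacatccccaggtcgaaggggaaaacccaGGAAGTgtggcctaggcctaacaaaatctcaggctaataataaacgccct
*Tnfrsf13c*: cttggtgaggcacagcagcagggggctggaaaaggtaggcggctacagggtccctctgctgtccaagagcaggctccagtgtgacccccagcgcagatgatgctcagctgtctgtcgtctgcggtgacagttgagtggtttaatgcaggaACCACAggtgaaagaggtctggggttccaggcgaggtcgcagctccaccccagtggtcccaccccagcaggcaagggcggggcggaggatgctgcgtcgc
*Ltbr*: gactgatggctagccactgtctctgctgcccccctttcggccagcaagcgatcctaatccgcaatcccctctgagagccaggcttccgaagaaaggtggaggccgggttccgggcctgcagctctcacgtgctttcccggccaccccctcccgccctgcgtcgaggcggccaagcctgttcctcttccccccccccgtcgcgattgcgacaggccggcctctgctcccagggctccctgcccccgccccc
The GC content of these windows was 54.0%, 63.2% and 69.2%, with 8, 10 and 18 CpG dinucleotides, against medians of 52.4% and 6 over all windows. The *Tnfrsf9* windows were the poorest of the 9, with 4 CpG each, and that of *Tnfrsf11a* was the richest, with 31.

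Total counts were 20331064 to 28588718 per library, where 3 counts, taken as the floor of detection, equal 0.104 to 0.153 CPM (counts scaled by the library's total and a normalization factor). This floor and the counting intervals given below cover counting error only. *Spi1* had 96.5 to 109.9 CPM in the Hox-WT libraries, at most 1 count in any Hox-URE library, and 2.50 to 6.35 CPM in those of URE-AML. *Hoxb8* was at 61.6 to 69.7 CPM in Hox-WT and at 126.8 to 141.1 CPM in Hox-URE, and the 3 URE-AML libraries had 0 counts of it. Of 8 markers of myeloid progenitors, 8 were above the floor in every library of Hox-WT and Hox-URE and 7 in URE-AML, where *Cd34* had 1 count in total. Their levels were not alike, since 6 of the 8 were called lower and none higher in Hox-URE against Hox-WT, among them *Mpo* (myeloperoxidase) at 5042 CPM in Hox-WT and 5.04 CPM in Hox-URE and *Elane* (neutrophil elastase) at 180.6 and 9.29 CPM. The leukemic line had 3 of them called above and 4 below Hox-WT, with *Elane* at 7311 CPM. Of all genes tested, 15.9% were called lower and 21.3% higher in Hox-URE, and 20.2% and 23.0% in URE-AML, both against Hox-WT. In these bulk samples, fewer cells of a type and less RNA per cell cannot be told apart.

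The lines differed in which receptors made up their transcripts. Per kilobase of exon, the 10 receptors together had 102.2 ± 3.56 CPM in Hox-WT (mean ± SD, n = 3 libraries), 201.5 ± 11.02 CPM in Hox-URE (SD, n = 3), and 289.1 ± 10.5 CPM in URE-AML (SD, n = 3). On this length-scaled level, Hox-WT was spread over 4 receptors, with 30.9% of the sum from *Tnfrsf1a*, 25.4% from *Tnfrsf13b*, 21.99% from *Tnfrsf1b* and 20.7% from *Ltbr*. In Hox-URE, *Tnfrsf1b* gave 51.5% (39.5% to 64.4% over the libraries) and *Tnfrsf9* 27.4% (12.9% to 42.1%), with *Tnfrsf9* ahead in library 3, and in URE-AML *Tnfrsf1b* gave 67.0% and *Tnfrsf1a* 22.4%. *Tnfrsf13b*, at 0 in Hox-URE, and *Tnfrsf9*, at 0.111% in Hox-WT, were thus each a large share of the sum in 1 Hox line and next to nothing in the other.

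**Figure D1:**
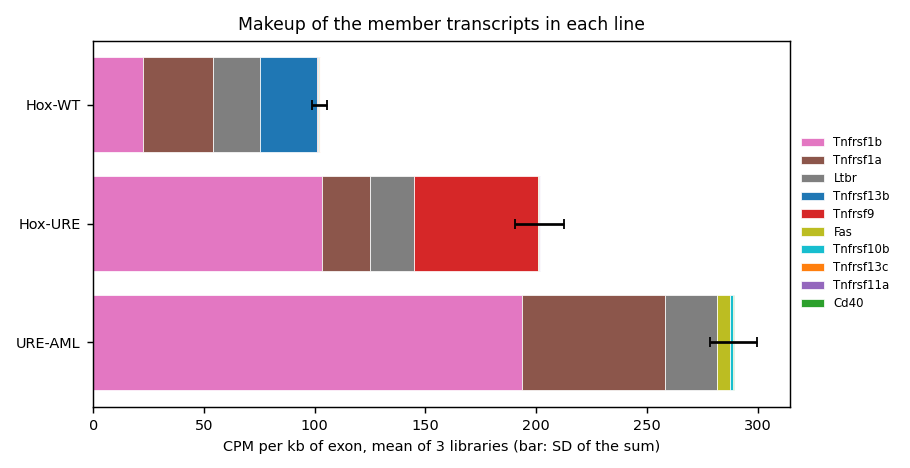
Level of the 10 receptors in each line in CPM per kilobase of exon (mean of 3 libraries, stacked; the black bar is the SD of the sum). The sums were 102.2, 201.5 and 289.1 from top to bottom, and *Tnfrsf13b* filled a visible block only in Hox-WT and *Tnfrsf9* only in Hox-URE.

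Of the 10 receptors, 8 had counts enough to be tested (all but *Tnfrsf13c* and *Cd40*), and a gene counted as called where its fold change exceeded 1.5 with an edgeR adjusted p below 0.05. In Hox-URE against Hox-WT, 5 of the 8 were called, with *Tnfrsf9*, *Tnfrsf1b* and *Tnfrsf11a* higher and *Tnfrsf13b* and *Tnfrsf10b* lower. Of all 13082 genes tested, 37.2% were called in that comparison, 21.3% higher and 15.9% lower. Against Hox-WT, URE-AML had calls for 5 of the 8, with *Fas*, *Tnfrsf1b*, *Tnfrsf10b* and *Tnfrsf1a* higher and *Tnfrsf13b* lower, where 43.2% of all genes were called, 23.0% higher and 20.2% lower. Against Hox-URE, URE-AML had calls for 6 of the 8, with *Tnfrsf10b*, *Fas*, *Tnfrsf1a* and *Tnfrsf1b* higher and *Tnfrsf9* and *Tnfrsf11a* lower, where 42.7% of all genes were called, 20.3% higher and 22.4% lower. The receptors were not tested as a group and are described one by one. The median log2 fold change of the 8 was 0.42, 0.59 and 1.25 in the 3 comparisons, the same with *Tnfrsf13b* and *Tnfrsf11a* at their bounds, against 0.000245, 0.00165 and 0 over all genes tested. The comparisons share libraries and are not independent of each other.

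**Figure D2:**
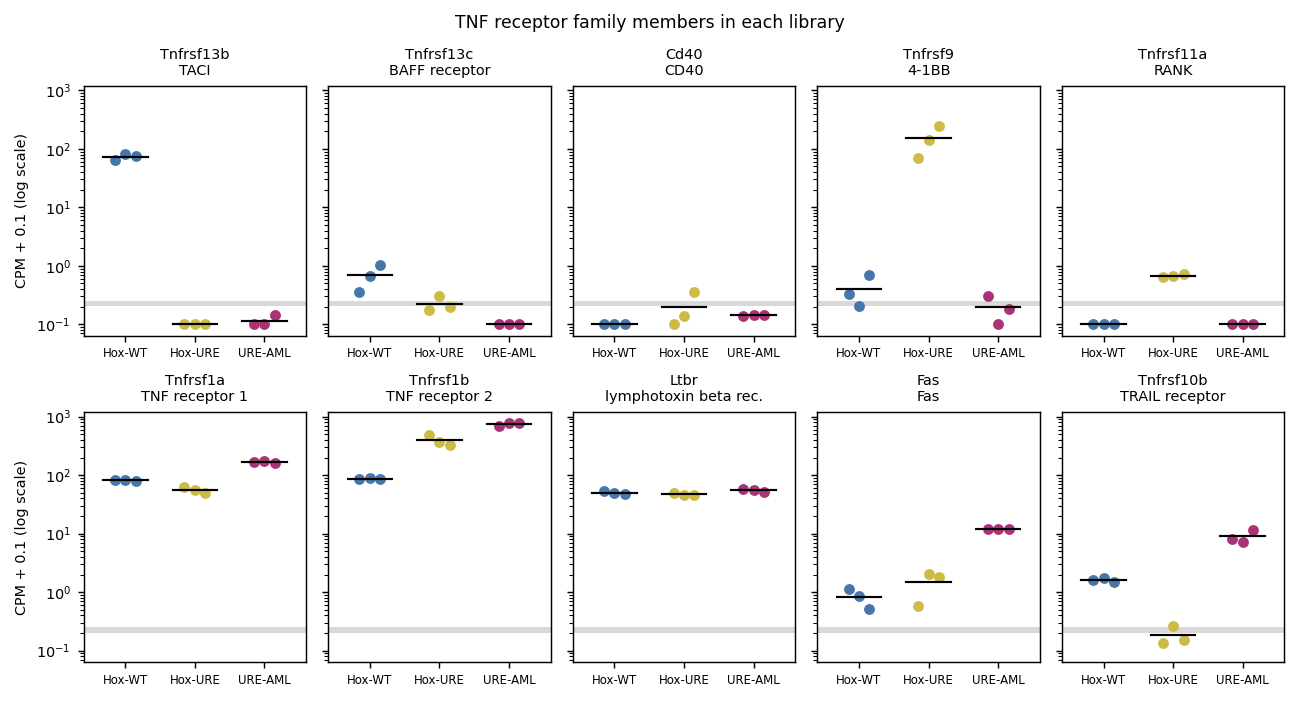
Level of each receptor in each library (points, CPM plus 0.1 on a log axis; black lines are means of 3 libraries) of the 3 lines, with the floor of 3 counts as a grey band. *Tnfrsf13b* was high only in Hox-WT, *Tnfrsf9* only in Hox-URE, *Fas* and *Tnfrsf10b* were highest in URE-AML, and *Ltbr* stayed between 45.6 and 58.2 CPM.

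*Tnfrsf13b* (ENSMUSG00000010142), which encodes TACI, was high in Hox-WT and at or under the floor in both URE-deleted lines. It had 63.5, 81.3 and 76.5 CPM in the 3 Hox-WT libraries, 0 counts in each Hox-URE library, and 0, 0 and 1 counts in the URE-AML libraries. Every Hox-WT library therefore lay far above every library of the other lines. By the floor of 3 counts per library, its level in Hox-URE was below that in Hox-WT by at least 572-fold (edgeR adjusted p = 6.56e-08). In URE-AML, the counts gave a ratio of Hox-WT to URE-AML of 5110, with a 95% counting interval of 917 to 201850 (edgeR adjusted p = 3.04e-08). This ratio rests on the 1 count of library 3, and without that library the fitted log2 fold change went from -11.89 to -13.85. Both URE-deleted lines being at the floor, no fold between them is given. The gene lies at chr11:61126755-61149372 on the plus strand (GRCm38). It overlaps the processed pseudogene *Gm12269* on the opposite strand, which had 1 count in total over the 9 libraries.

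The 5 tested genes with the pattern across the 9 libraries most like that of *Tnfrsf13b* were *Icam1*, *Snx20*, *Ptprc*, *Smim5* and *Mchr1* (Pearson's r of log2 CPM from 0.999 to 0.9999). *Icam1* encodes an adhesion protein and *Ptprc* the leukocyte phosphatase CD45. *Icam1* had 13.7 CPM and *Ptprc* 158.0 CPM in Hox-WT, and both had 0 in Hox-URE and at most 0.0278 CPM in URE-AML. Of 13081 other genes tested, 89 had an r above 0.99, and since the 9 libraries fall into 3 lines, such a value describes a gene with 1 level in Hox-WT and another in both other lines, whatever the size of the difference.

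*Tnfrsf13c* (ENSMUSG00000068105), the BAFF receptor, was present at a low level in Hox-WT. Its counts were 7, 16 and 27 in Hox-WT, 2, 5 and 2 in Hox-URE and 0 in each URE-AML library. The 3 lines did not overlap, but in Hox-URE and URE-AML the gene was near or under the floor. Total counts scaled to depth gave a ratio of Hox-WT to Hox-URE of 4.73 (95% counting interval 2.30 to 10.9), and URE-AML was at least 4.50-fold lower than Hox-WT. The gene was filtered out of the test for its low counts and lies at chr15:82221743-82224369. The third receptor of BAFF and APRIL, *Tnfrsf17* (BCMA), had 0 to 2 counts in every library.

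*Cd40* (ENSMUSG00000017652), through which T cells stimulate B cells and macrophages, was barely detected in any line. It had 0 counts in all Hox-WT libraries, 0, 1 and 5 in Hox-URE, and 1 in each URE-AML library. At this depth no difference between the lines could be measured. The gene lies at chr2:165055627-165072948, where 11 tested genes within 250 kb had median log2 fold changes of 0.05, -0.14 and -0.30 in the 3 comparisons.

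*Tnfrsf9* (ENSMUSG00000028965), which encodes the costimulatory receptor 4-1BB, was high in Hox-URE alone. Its levels were 70.1, 142.0 and 244.5 CPM in Hox-URE, 0.225, 0.107 and 0.588 CPM in Hox-WT, and 0.202, 0 and 0.0858 CPM in URE-AML. The 3 Hox-URE libraries were widely spread, yet the lowest was far above all 6 others, and Hox-WT and URE-AML overlapped. The log2 fold change was 8.91 ± 0.63 (SE) in Hox-URE against Hox-WT (edgeR adjusted p = 1.89e-06) and -10.48 ± 0.73 (SE) in URE-AML against Hox-URE (edgeR adjusted p = 1.11e-06). Hox-WT had 26 counts and URE-AML 7 counts in total, which puts counting intervals of 312 to 701 around the ratio of Hox-URE to Hox-WT (458) and of 682 to 3498 around that of Hox-URE to URE-AML (1406). Leaving out library 3 of Hox-WT moved the first log2 fold change to 9.79, and leaving out library 1 of URE-AML moved the second to -11.57. Between Hox-WT and URE-AML the difference was not called by edgeR (adjusted p = 0.336, 95% interval of the log2 fold change -4.52 to 1.38). *Tnfrsf9* lies at chr4:150914562-150946102 on the plus strand and overlaps *Camta1* on the other strand. Whether the counting used strand was not stated. *Camta1* had 14.4 to 15.7 CPM in Hox-WT, 10.1 to 10.8 CPM in Hox-URE and 6.57 to 8.52 CPM in URE-AML, and its part in the *Tnfrsf9* counts was not tested.

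*Tnfrsf11a* (ENSMUSG00000026321), which encodes RANK, was detected only in Hox-URE and at a low level. It had 15, 14 and 12 counts in the Hox-URE libraries and 0 counts in each library of Hox-WT and URE-AML. The Hox-URE libraries were close to each other at 0.546 to 0.613 CPM. By the floor of 3 counts per library, Hox-URE was at least 5.38-fold higher than Hox-WT (edgeR adjusted p = 0.000833), and URE-AML was at least 4.43-fold lower than Hox-URE (edgeR adjusted p = 0.000853). The gene lies at chr1:105780718-105847981.

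*Tnfrsf1b* (ENSMUSG00000028599), TNF receptor 2, which signals through TRAF2 without a death domain, had the highest mean level per length of the 10 receptors in both URE-deleted lines, though in library 3 of Hox-URE *Tnfrsf9* exceeded it. Its levels were 84.9, 87.5 and 84.8 CPM in Hox-WT, 489.7, 371.1 and 321.8 CPM in Hox-URE, and 688.9, 766.1 and 763.4 CPM in URE-AML. The 3 lines formed 3 separate groups in the order Hox-WT, Hox-URE, URE-AML. The log2 fold change was 2.20 ± 0.14 (SE) in Hox-URE (edgeR adjusted p = 1.12e-06) and 3.11 ± 0.15 (SE) in URE-AML (edgeR adjusted p = 6.11e-08), both against Hox-WT. URE-AML exceeded Hox-URE by 0.91 ± 0.14 (SE) on the log2 scale (edgeR adjusted p = 0.000293). In Hox-URE, the library with the highest *Tnfrsf1b* had the lowest *Tnfrsf9*, and the one with the lowest *Tnfrsf1b* had the highest *Tnfrsf9*. The gene lies at chr4:145213463-145246870, next to *Tnfrsf8* (CD30), which is described with the other receptors.

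*Tnfrsf1a* (ENSMUSG00000030341), TNF receptor 1, which carries a death domain, was highest in URE-AML. Its levels were 80.9, 83.8 and 80.6 CPM in Hox-WT, 62.3, 55.9 and 49.3 CPM in Hox-URE, and 168.0, 171.3 and 163.4 CPM in URE-AML. The 3 lines did not overlap, with Hox-URE lowest. URE-AML exceeded Hox-WT by 1.04 ± 0.09 (SE) on the log2 scale (edgeR adjusted p = 6.05e-06) and Hox-URE by 1.59 ± 0.09 (SE, edgeR adjusted p = 3.37e-07). Hox-URE had a log2 fold change of -0.55 ± 0.09 (SE) against Hox-WT, which passed the test (edgeR adjusted p = 0.000688) but not the fold threshold of 1.5. Without library 1 of Hox-URE the change was -0.64 and was called (edgeR adjusted p = 0.000172).

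*Ltbr* (ENSMUSG00000030339), which activates the noncanonical NF-kB pathway when lymphotoxin or LIGHT binds it, differed little between the lines. Its levels were 52.5, 49.8 and 46.8 CPM in Hox-WT, 48.8, 46.5 and 45.6 CPM in Hox-URE, and 58.2, 55.8 and 50.5 CPM in URE-AML. Hox-WT overlapped both other lines, Hox-URE and URE-AML did not overlap, and all 9 libraries lay between 45.6 and 58.2 CPM. The 95% intervals of the log2 fold change were -0.29 to 0.12 in Hox-URE against Hox-WT, -0.06 to 0.35 in URE-AML against Hox-WT and 0.02 to 0.43 in URE-AML against Hox-URE, and edgeR called none of them (adjusted p = 0.480, 0.212 and 0.0595). *Ltbr* (chr6:125306571-125313885, minus strand) and *Tnfrsf1a* (chr6:125349362-125362484, plus strand) are near each other on chromosome 6. The 13 tested genes within 250 kb of *Tnfrsf1a*, *Ltbr* among them, had a median log2 fold change of -0.15 in URE-AML against Hox-WT, with 2 called higher and 4 lower.

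The death receptors *Fas* and *Tnfrsf10b* were both highest in URE-AML. *Fas* (ENSMUSG00000024778), through which Fas ligand triggers apoptosis, had 1.01, 0.75 and 0.415 CPM in Hox-WT, 0.473, 1.95 and 1.74 CPM in Hox-URE, and 11.8, 11.9 and 11.9 CPM in URE-AML. The URE-AML libraries were nearly equal and far above the others, whereas Hox-WT and Hox-URE overlapped. URE-AML exceeded Hox-WT by 4.03 ± 0.47 (SE) on the log2 scale (edgeR adjusted p = 3.96e-05) and Hox-URE by 3.11 ± 0.44 (SE, edgeR adjusted p = 0.000171). Hox-URE against Hox-WT was not called at 0.91 ± 0.48 (SE, edgeR adjusted p = 0.134), but it was called without library 1 of Hox-URE, at 1.34 (edgeR adjusted p = 0.00505). *Fas* lies at chr19:34290666-34327772, and it was not the only gene of its surroundings with this difference. Of 8 tested genes within 250 kb, 6 were called higher in URE-AML than in Hox-WT and none lower, with a median log2 fold change of 3.08, against -0.09 over the 465 other tested genes of chromosome 19. Relative to Hox-URE the same 8 neighbours had 5 calls upward and 2 downward, with a median of 1.25. The annotated RNA *Gm27818*, which lies inside *Fas* on the same strand, had 0 counts in all libraries.

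*Tnfrsf10b* (ENSMUSG00000022074), a receptor for the death ligand TRAIL, fell in Hox-URE and rose in URE-AML. It had 40, 46 and 41 counts in Hox-WT, 1, 4 and 1 in Hox-URE, and 197, 148 and 270 in URE-AML, or 1.42 to 1.64, 0.0364 to 0.166 and 7.04 to 11.6 CPM. The lines did not overlap, and Hox-URE was under the floor in 2 of its 3 libraries. The log2 fold change was -4.09 ± 0.46 (SE) in Hox-URE (edgeR adjusted p = 4.52e-05) and 2.54 ± 0.31 (SE) in URE-AML (edgeR adjusted p = 5.37e-05), both against Hox-WT. Because Hox-URE had 6 counts in total, the ratio of Hox-WT to Hox-URE was known only as 18.0 with a 95% counting interval of 8.05 to 50.03, and that of URE-AML to Hox-URE as 105.6 with an interval of 48.2 to 288.8 (edgeR adjusted p = 7.05e-07). Without library 2 of Hox-URE, the log2 fold change against Hox-WT was -5.01, and that of URE-AML against Hox-URE was 7.54. The neighbours went the other way, since of 5 tested genes within 250 kb (chr14:69767472-69784411 for *Tnfrsf10b* itself) 3 were called lower and none higher in URE-AML against Hox-WT.

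**Figure D3:**
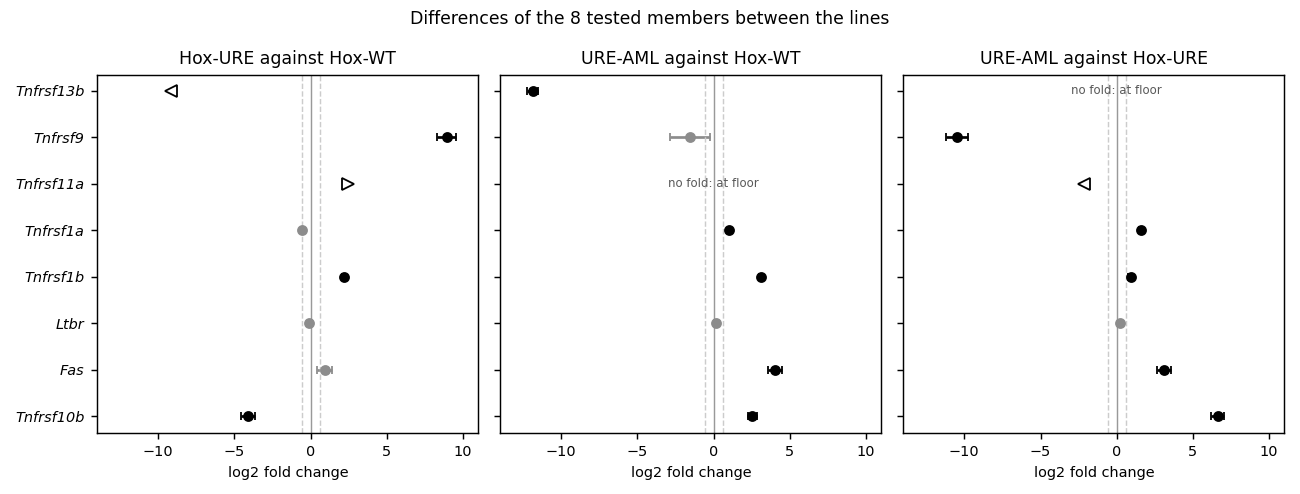
Log2 fold changes of the 8 tested receptors in the 3 comparisons (points with SE from the edgeR fit; black called, grey not called; dashed lines mark a fold of 1.5). Open triangles are lower bounds from the floor of 3 counts per library, which for Hox-URE against Hox-WT are at least 572-fold lower (*Tnfrsf13b*) and at least 5.38-fold higher (*Tnfrsf11a*).

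The ligands of these receptors also differed between the lines, and 9 of 18 TNF family ligands were tested. Against Hox-WT, Hox-URE had 3 of these 9 called higher and 4 lower, and URE-AML 4 higher and 3 lower. Against Hox-URE, URE-AML had 4 higher and 3 lower. Of all genes tested, 37.2%, 43.2% and 42.7% were called in these comparisons. The median log2 fold changes of the 9 ligands were 0.15, 0.57 and -0.60. Of the ligands of TACI, *Tnfsf13* (APRIL) ranged over 64.7 to 76.7 CPM in the Hox-WT libraries, 13.7 to 19.98 CPM in the Hox-URE libraries and 18.7 to 44.8 CPM in the URE-AML libraries. APRIL was thus highest in the line that carried TACI, with log2 fold changes of -1.98 ± 0.28 (SE) in Hox-URE (edgeR adjusted p = 0.000204) and -1.16 ± 0.27 (SE) in URE-AML (edgeR adjusted p = 0.00382), both against Hox-WT. *Tnfsf13b* (BAFF) had 0, 2 and 1 counts in Hox-WT, 5, 0 and 1 in Hox-URE, and 185, 202 and 263 in URE-AML. Its ratio of URE-AML to Hox-WT was 262 with a lower 95% counting limit of 89.3 (edgeR adjusted p = 3.41e-06; the fitted log2 fold change of 7.85 was 8.68 without library 2 of Hox-WT), so BAFF was high in the line in which TACI and the BAFF receptor had 1 and 0 counts in total.

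RANK and its ligand were both highest in Hox-URE. *Tnfsf11* (RANK ligand) had 2, 1 and 2 counts in Hox-WT, 175, 188 and 187 in Hox-URE, and 60, 56 and 20 in URE-AML. It fell from Hox-URE to URE-AML by 1.99 ± 0.38 (SE) on the log2 scale (edgeR adjusted p = 0.00114). *Tnfrsf11b* (osteoprotegerin, the soluble decoy for RANK ligand) had 0 counts in all 9 libraries. *Tnfsf9* (4-1BB ligand) had 35, 31 and 33 counts in Hox-URE against 16, 14 and 13 in Hox-WT and 13, 13 and 6 in URE-AML, a log2 fold change of 1.44 ± 0.37 (SE) between the Hox lines (edgeR adjusted p = 0.00789). The 4-1BB receptor and its ligand were therefore highest in the same line, though the ligand was far lower, at 1.27 to 1.69 CPM.

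The ligands of TNF receptors 1 and 2, of the TRAIL receptor, of Fas and of CD40 were low or absent, whereas LIGHT, a ligand of the lymphotoxin beta receptor, was not. *Tnf* had 6, 9 and 6 counts in Hox-WT, 1, 3 and 1 in Hox-URE, and 28, 9 and 14 in URE-AML. Against Hox-WT it was called lower in Hox-URE (edgeR adjusted p = 0.0437) and higher in URE-AML (edgeR adjusted p = 0.0227), but both calls were lost when some libraries were left out. The first was lost without any 1 of the Hox-WT libraries, library 1 or 3 of Hox-URE or library 3 of URE-AML (edgeR adjusted p at most 0.139), and the second without library 1 or 3 of Hox-WT or library 1 of URE-AML (edgeR adjusted p at most 0.123). DESeq2 made neither call (adjusted p = 0.101 and 0.0722). *Tnfsf10* (TRAIL) had 37 to 62 counts per Hox-WT library, 9 to 15 per Hox-URE library and 5 to 13 per URE-AML library, and was called lower in both URE-deleted lines (edgeR adjusted p = 0.0093 and 0.00197), which overlapped each other. *Fasl*, *Cd40lg* and *Lta* had at most 2 counts in any library, and *Ltb* at most 7. *Tnfsf14* (LIGHT) had 6.68 ± 0.62 CPM in Hox-WT, 7.40 ± 0.72 CPM in Hox-URE, and 29.8 ± 4.24 CPM in URE-AML (mean ± SD, n = 3). *Tnfsf4* (OX40 ligand) was above the floor only in Hox-WT, with 61, 90 and 110 counts, and *Tnfsf12* (TWEAK) was highest in Hox-URE, with 773, 1204 and 1045 counts against 112 to 225 in Hox-WT.

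**Figure D4:**
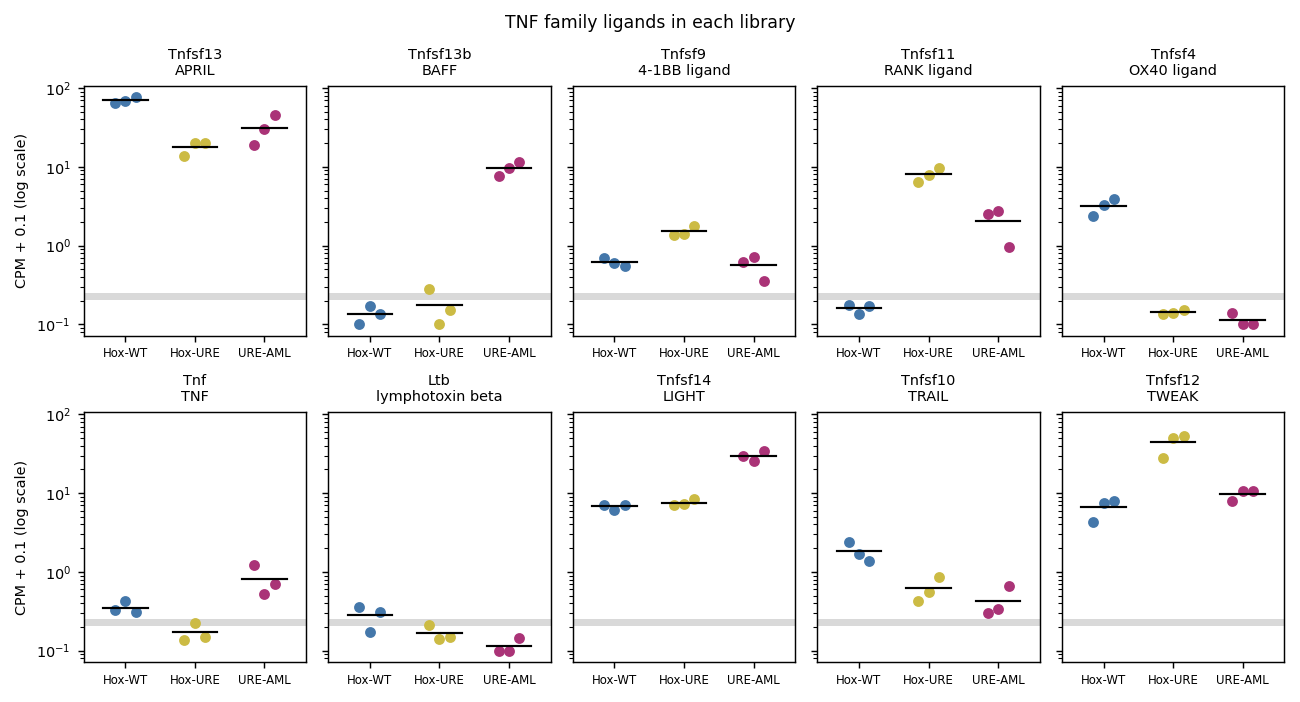
Level of 10 TNF family ligands in each library (points, CPM plus 0.1 on a log axis; black lines are means of 3 libraries; the grey band is the floor of 3 counts). BAFF (*Tnfsf13b*) was above the band in all libraries only in URE-AML, RANK ligand (*Tnfsf11*) was highest in Hox-URE, and APRIL (*Tnfsf13*) was highest in Hox-WT.

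Of 18 other TNF receptors, 10 were tested, and against Hox-WT the calls were 4 higher and 1 lower for Hox-URE and 4 higher and 2 lower for URE-AML. Against Hox-URE, URE-AML had 3 called higher and 1 lower. Of all genes tested, 37.2%, 43.2% and 42.7% were called in these comparisons. The median log2 fold changes of the 10 other receptors were 0.66, 1.06 and 0.44. Among them, *Tnfrsf8* (CD30), a neighbour of *Tnfrsf1b*, was highest in URE-AML, with 109 to 140 counts per Hox-WT library, 133 to 163 per Hox-URE library and 307 to 447 per URE-AML library. *Tnfrsf8* was called higher in URE-AML than in Hox-WT by 1.91 ± 0.23 (SE) on the log2 scale (edgeR adjusted p = 5.19e-05) but not in Hox-URE (edgeR adjusted p = 0.122), whose lowest library (4.84 CPM) overlapped those of Hox-WT. Without library 1 of Hox-URE that difference was called, at 0.61 on the log2 scale (edgeR adjusted p = 0.0421). *Tnfrsf18* (GITR) was highest in Hox-URE, as *Tnfrsf9* was, with 11.98 to 18.1 CPM there, 4.68 to 5.51 CPM in Hox-WT and 2.62 to 3.73 CPM in URE-AML. *Relt* was highest in Hox-WT, with 22.2 to 28.9 CPM there and 5.36 to 11.8 CPM in the other lines. *Tnfrsf22*, *Tnfrsf23* and *Tnfrsf26* were all called higher in both URE-deleted lines, but these genes are closely related copies in 1 cluster and the assignment of reads among them is uncertain.

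**Figure D5:**
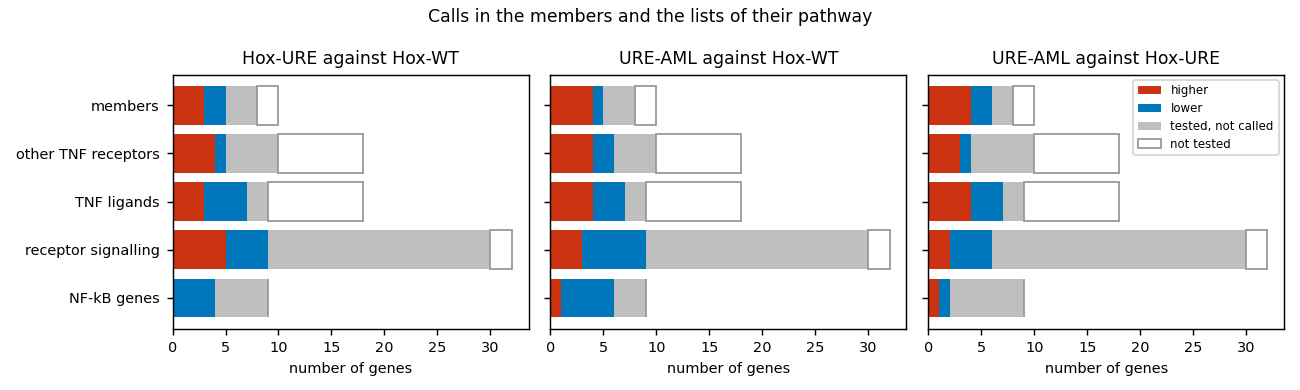
Number of genes called higher, called lower, tested but not called, and not tested, for the 10 receptors, 18 other TNF receptors, 18 TNF ligands, 32 receptor signalling genes and 9 NF-kB genes in each comparison. In Hox-URE against Hox-WT, 9 of 30 tested signalling genes and 7 of 9 tested ligands were called, where 37.2% of all genes tested were, and the lists were not tested against each other.

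Downstream of the receptors, 30 of 32 signalling genes were tested, and 21, 21 and 24 of them were not called in the 3 comparisons, where 37.2%, 43.2% and 42.7% of all genes tested were called. The calls were 5 higher and 4 lower for Hox-URE over Hox-WT, 3 higher and 6 lower for URE-AML over Hox-WT, and 2 higher and 4 lower for URE-AML over Hox-URE, with median log2 fold changes of 0.10, -0.12 and -0.01. With *Traf1*, which had 0 counts in Hox-WT, at its bound, the first of these medians was 0.07. A test against a fold of 1.5 (edgeR's glmTreat) called 5 in place of 9 for URE-AML over Hox-WT and 3 in place of 6 over Hox-URE. Without a fold threshold 14, 18 and 16 were called. Calls over all genes moved as well, from 4873, 5648 and 5591 in the main test to at most 6936, 7549 and 7586 under any alternative. The signalling counts were not set against a share of all genes under the same setting. *Traf1*, an adaptor of TNF receptor 2, had 1, 7 and 0 counts in Hox-URE and 39, 9 and 18 in URE-AML, which was at least 8.58-fold higher than Hox-WT (edgeR adjusted p = 0.00247). *Tnfaip3* (A20), the ubiquitin-editing brake on NF-kB, was highest in Hox-URE at 10.6 ± 0.79 CPM, against 1.83 ± 0.87 in Hox-WT and 3.97 ± 0.68 in URE-AML (mean ± SD, n = 3). *Ripk1* and *Ikbkg* (NEMO), which relay the signal of TNF receptor 1, exceeded Hox-WT in Hox-URE by 0.86 and 0.93 on the log2 scale (edgeR adjusted p = 5.53e-05 and 0.000507). *Ripk3* and *Traf4* were called lower in both URE-deleted lines than in Hox-WT, at log2 fold changes of -1.32 and -2.14 in Hox-URE and -0.99 and -1.30 in URE-AML. *Adam17*, the protease that sheds TNF and its receptors, fell in the leukemic line against Hox-WT, at a log2 fold change of -1.22 (edgeR adjusted p = 1.3e-05), with 53.2 to 64.5 CPM against 128.6 to 142 CPM.

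All 9 NF-kB genes were tested. Against Hox-WT, none was called higher and 4 lower for Hox-URE, where the shares over all tested genes were 21.3% and 15.9%. For URE-AML against Hox-WT, 1 was called higher and 5 lower, beside shares of 23.0% and 20.2%. Against Hox-URE, URE-AML had 1 called higher and 1 lower, beside shares of 20.3% and 22.4%. The median log2 fold changes of the 9 NF-kB genes were -0.39, -0.62 and 0.04 in these comparisons. *Rel* and *Nfkbie* were called lower in both URE-deleted lines than in Hox-WT, *Rel* by -2.52 and -2.97 and *Nfkbie* by -0.88 and -4.32 on the log2 scale in Hox-URE and URE-AML. *Nfkbia* (IkB alpha), the inhibitor that NF-kB itself induces, was called higher in URE-AML than in Hox-WT, at 56.7 ± 2.34 CPM against 14.5 ± 0.89 CPM (mean ± SD, n = 3, edgeR adjusted p = 5.55e-07). *Bcl3* (edgeR adjusted p = 0.0178 and 0.019) and *Relb* (edgeR adjusted p = 0.0397 and 0.0433) were also called lower in both. Both *Bcl3* calls were lost without library 1 or 2 of Hox-WT, and that in URE-AML without library 1 or 3 of that line (edgeR adjusted p at most 0.0727). Both *Relb* calls were lost without any 1 of the Hox-WT libraries or library 2 or 3 of Hox-URE, and that in URE-AML without library 1 or 3 of that line (edgeR adjusted p at most 0.137). Without library 1 or library 2 of Hox-WT, 2 of the 9 NF-kB genes were called in Hox-URE.

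Markers of cells known to carry these receptors were followed in the same libraries. Of 12 B cell markers, 5 were above the floor in every library of Hox-WT, 5 in Hox-URE and none in URE-AML, and their summed level was 163.6 to 266.5, 81.2 to 142.8 and 0.242 to 0.644 CPM. Of these markers, *Ms4a1* (CD20) and *Cr2* had 0 counts in all 9 libraries, and *Pax5* had 1 count in total, in Hox-WT. *Ebf1* had 33.4 to 46.8 CPM in Hox-WT and Hox-URE alike. In Hox-URE against Hox-WT, 5 of the 6 tested B cell markers were called, 3 higher and 2 lower. Of all genes tested, 37.2% were called in that comparison. *Cd79b*, a signalling chain of the B cell receptor, went the way of *Tnfrsf13b*, with 33, 83 and 100 counts in Hox-WT and 0, 0 and 1 in Hox-URE. *Igll1*, a surrogate light chain and most of the summed level, was called lower at a log2 fold change of -1.27, and *Cd79a*, *Blnk* and *Vpreb1* were called higher at 3.50, 1.39 and 1.58. Of 5 plasma cell markers, 4, 3 and 2 were above the floor in every library of Hox-WT, Hox-URE and the leukemic line. Of these, *Sdc1* (40.6 ± 5.71 CPM) and *Prdm1* (5.71 ± 2.23 CPM) were highest in Hox-WT, as *Tnfrsf13b* was, and *Jchain* had 0 counts there. The summed level of these 5 markers was lowest in Hox-WT, at 275.8 to 332.6 CPM, and reached 451.0 to 479.3 CPM in Hox-URE and 937.9 to 1158 CPM in URE-AML, and most of it was *Xbp1*.

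Of 9 T and NK cell markers, *Lck* was above the floor in every library, *Trac* in those of Hox-URE and *Cd3d* in those of URE-AML, and *Cd3e*, *Cd3g*, *Cd8a* and *Ncr1* had 0 counts in all libraries. The summed T and NK cell level was 7.20 to 11.3 CPM in Hox-URE, the line with high *Tnfrsf9*, 4.54 to 6.22 in Hox-WT and 0.767 to 1.81 in URE-AML. Most of the sum in both Hox lines was *Lck*, which was not called between them (edgeR adjusted p = 0.837). *Trac*, the other marker tested, was called higher in Hox-URE, at a mean of 2.62 CPM against 0.083 CPM in Hox-WT. Within Hox-URE the sum was highest in library 1, where *Tnfrsf9* was lowest, and lowest in library 3, where *Tnfrsf9* was highest. Of 8 dendritic cell markers, *H2-Ab1* alone was above the floor in Hox-URE and none was in the other lines, with sums of 24.1 to 31.0 CPM in Hox-URE and at most 0.525 CPM elsewhere. Of 8 monocyte and macrophage markers, 6 were above the floor in every Hox-WT library, 3 in Hox-URE and 4 in URE-AML, with sums of 300.2 to 308.7, 842.3 to 944.6 and 15.9 to 29.2 CPM. The sum in Hox-URE was almost all *Ccr2*, a chemokine receptor, at a mean of 885.4 CPM. By contrast, 5 of the 6 tested markers (*Adgre1*, *Irf8*, *Csf1r*, *Ly86* and *Cd68*) were called lower there than in Hox-WT. Of all genes tested, 15.9% were called lower in that comparison. Of 6 markers of stroma and endothelium, 3 were above the floor in each line, with sums of 176.0 to 183.2, 263.5 to 298.5 and 634.2 to 857.2 CPM. Most of each sum was *Pecam1*, at means of 163.7, 218.3 and 748.0 CPM, and *Cdh5* had 0 counts throughout. The part of these marker genes in the receptor differences was not tested.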

How the data were processed

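Poly-A RNA of 3 cell lines was sequenced from stranded libraries, 3 for each line. Salmon was run by the authors on a GRCm38 transcriptome, with sums per gene from tximport, and the deposited values are estimated counts per gene in whole numbers, without scaling for depth. The transcriptome release, a possible length scaling and the use of strand were not given in the sources used here, so a change of isoform could shift a count. Lines were read from the labels, and all 9 columns were used.

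The counts were analysed with edgeR 4.0.16 in R 4.3.3. Library sizes were scaled by TMM, genes were filtered with filterByExpr (minimum count 10), and 1 quasi-likelihood model with the line as its factor was fitted to all 9 libraries. Each pair of lines was compared by a two-sided quasi-likelihood F test, with Benjamini-Hochberg adjustment over the 13082 genes tested. Filtered genes held 0.0499% of counts. The SE is the absolute log2 fold change over the square root of F. Counting intervals are exact, at 95%. Folds against a line with 0 counts are bounds from 3 counts per library, and no fold is given where both lines were at or under that floor.

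Positions, exon lengths (union of exons) and overlaps came from GENCODE M21 on GRCm38, which held 54094 of the 54347 identifiers and not the other 253. Promoters came from RefSeq. The code was tested on simulated data. Besides all 10 receptors, genes of 4 pathway lists (other TNF receptors, ligands, signalling, NF-kB) could be named where called, ligands and partners of the receptors always, *Spi1* and *Hoxb8* as checks, and 5 genes for likeness to *Tnfrsf13b*. *Gm12269*, *Gm27818* and *Camta1* were named for their overlap, and cell type markers for their level. Single values of some markers are not reported here. The receptors, the lists and the tests were chosen with earlier results of these data known. Alternatives were other scalings, filters, DESeq2 1.42.0, a test against a fold of 1.5 (glmTreat), a replicate block, only the 6 libraries compared, no fold threshold, and leaving out each library. Figures were drawn with matplotlib 3.10.9.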

Additional observations from a re-analysis of the deposited data

How the results depend on the processing

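The 24 receptor values (8 receptors in 3 comparisons) were recomputed under up to 18 alternatives each, 417 values in all. None reversed and no call was lost, and 414 stayed called or not called as before. Where both lines were at the floor (*Tnfrsf13b* in the URE-deleted lines, *Tnfrsf11a* in Hox-WT and URE-AML), fitted values could be 0 and had no direction to keep. The other 3 became calls, namely *Fas* and *Tnfrsf1a* in Hox-URE without library 1 of that line (1.34 and -0.64 on the log2 scale) and *Tnfrsf1a* with scaling by library size alone (-0.66). That scaling moved the median of all genes by -0.083 for Hox-URE against Hox-WT and by 0.109 for URE-AML against Hox-URE, and the share of all calls that were higher went from 57.2% to 49.6% and from 47.6% to 54.9%. Of 1957 recomputed values of list genes, 82 lost a call, 13 gained one and no call reversed. Requiring at least 10 counts in every library left 4 of the 8 receptors (*Tnfrsf1a*, *Tnfrsf1b*, *Ltbr* and *Fas*) to test. Under that filter the receptors called numbered 1 for Hox-URE against Hox-WT, 3 for URE-AML against Hox-WT and 3 for URE-AML against Hox-URE. All genes called numbered 3200, 3602 and 3553, but how many genes passed the filter is not given, so no share can be read. Leaving out 1 library at a time gave 5 to 7, 5 to 6 and 6 to 7 receptors called, and 4687 to 5235, 5539 to 5945 and 5478 to 5873 genes. Without the filter, *Tnfrsf13c* was called lower in Hox-URE (edgeR adjusted p = 0.0361) and in URE-AML (edgeR adjusted p = 0.000176) than in Hox-WT. Without library 1 or 3 of Hox-URE, where the gene passed the filter, the first of these was not called (edgeR adjusted p = 0.0722 and 0.0675). The 2 URE-deleted lines without the filter also differed in it, with the lower level in URE-AML (edgeR adjusted p = 0.0167), but not without library 2 of Hox-URE (edgeR adjusted p = 0.0625). *Tnfrsf13c* also passed the filter in 7 of the 9 refits without 1 library, which accounts for part of the higher counts above. *Cd40* was not called in any comparison (edgeR adjusted p = 0.0865 to 0.629). With 9 same-numbered pairs of libraries from different lines, deviations from the line means correlated at 0.01 to 0.271, with 2 above 0.1, and in 17 of 18 combinations a library matched its own number best. The labels name no shared batch, so the numbers were not taken as pairs. With the replicate block, 5, 5 and 6 receptors and 4908, 5679 and 5584 genes were called, and the calls of *Relb* in both URE-deleted lines (edgeR adjusted p = 0.0511 and 0.0532), *Tnf* in Hox-URE (0.0679) and *Traf1* between the URE-deleted lines (0.0511) were lost. Depth limits *Tnfrsf13c*, *Cd40*, *Tnfrsf11a* and the low side of *Tnfrsf10b*, *Tnfrsf13b* and *Tnfrsf9*.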
